A study of Mus musculus with 48 samples.

Results

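The corticotropin-releasing hormone (CRH) system is described here by 4 genes out of 48795 in the count table: Crh, Crhbp, Crhr1 and Crhr2, taken by gene name. They were chosen by function with earlier results of these data known, among them that Crh lay below wild type in Q140 mice. That contrast is therefore given as a description without a test. Whether values of Crhbp in the Msh3 groups were also known is not recorded, so its tests may not be independent of the choice. The data are RNA-seq of the cerebral cortex of 48 mice aged 6 months, all listed under a C57BL/6 background, 24 females and 24 males. Wild type (WT) had 7 mice and Msh3+/- had 9, while Q140, Msh3-/- and both crosses (Q140 x Msh3+/- and Q140 x Msh3-/-) had 8 each. Q140 mice carry 1 knock-in allele of the huntingtin gene Htt with an expanded CAG repeat, a model of Huntington's disease made in the whole animal. Msh3 encodes a DNA mismatch repair protein, and the labels give 1 (+/-) or 2 (-/-) altered alleles without saying how the allele was made. Each mouse has 1 library. The labels name no litters or cages, but the library names carry a stem that 36 of the 48 mice share with up to 3 others, often across groups, and what it stands for is not stated. The p-values measure the spread between these libraries and, unless said otherwise, treat them as independent.

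CRH is a neuropeptide best known for starting the hormonal stress response from the hypothalamus, where it drives the pituitary to release corticotropin. In the cortex it is made locally, largely by inhibitory interneurons. CRHBP is a secreted protein that binds CRH and urocortin and keeps them from the receptors. CRHR1 and CRHR2 are G protein-coupled receptors that signal mainly through cyclic AMP: CRH acts chiefly on CRHR1, urocortin on both, and urocortins 2 and 3 on CRHR2.

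The 4 genes lie on 4 chromosomes of GRCm38 and overlap no other annotated gene. Crh (ENSMUSG00000049796) is at chr3:19693401-19695396 on the minus strand and Crhbp (ENSMUSG00000021680) at chr13:95431371-95444924 on the minus strand. Crhr1 (ENSMUSG00000018634) is at chr11:104132855-104175523 on the plus strand and Crhr2 (ENSMUSG00000003476) at chr6:55090049-55133016 on the minus strand. Crhbp shares its chromosome with Msh3, and the gap between them is 3.08 Mb. Of the 4, 3 matched an entry in the RefSeq promoter table (GRCm38.p6): Crhbp, Crhr1 and Crhr2, and not Crh. The stretch before the annotated start is shown for these 3, since they differ in base composition and in the core elements they hold. Capitals mark the searched motifs. Crhbp is chr13:95444925-95445081 (minus strand, 157 bases that end where the GENCODE gene begins), Crhr1 is chr11:104132531-104132780 (plus strand, 250 bases) and Crhr2 is chr6:55133017-55133266 (minus strand, 250 bases).
Crhbp: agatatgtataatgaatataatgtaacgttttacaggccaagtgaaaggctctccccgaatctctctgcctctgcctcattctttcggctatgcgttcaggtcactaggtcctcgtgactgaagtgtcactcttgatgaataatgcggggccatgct
Crhr1: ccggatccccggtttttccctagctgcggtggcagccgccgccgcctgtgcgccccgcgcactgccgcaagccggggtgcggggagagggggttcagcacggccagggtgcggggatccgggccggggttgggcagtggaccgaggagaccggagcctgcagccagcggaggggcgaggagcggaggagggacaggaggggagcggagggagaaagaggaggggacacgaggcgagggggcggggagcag
Crhr2: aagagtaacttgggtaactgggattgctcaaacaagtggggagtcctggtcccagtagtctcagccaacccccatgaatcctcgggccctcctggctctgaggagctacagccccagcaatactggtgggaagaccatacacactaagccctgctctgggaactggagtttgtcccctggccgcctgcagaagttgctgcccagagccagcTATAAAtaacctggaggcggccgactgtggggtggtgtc
Within the table's 300-base windows (250 before the RefSeq start and 50 after it), GC content was 48% for Crhbp, 75% for Crhr1 and 59% for Crhr2, beside a median of 52.7% over 32851 entries. The Crhr1 window had more G and C than 96.1% of them. Both strands were searched for 4 motifs. The cyclic AMP response element was searched as TGACGTCA and its shorter form as TGACG. The AP-1 site, bound by Fos and Jun proteins, was searched as TGANTCA. The TATA box was searched as TATAAA. Crhr1 held none of the 4. Crhr2 held TATAAA, which begins 39 bases before the start. Crhbp held TATAAA 31 bases after its RefSeq start and TGACG on the opposite strand 64 bases before it, both in these 30-base stretches.
Crhbp after the start: cctctactgctcTATAAAagagacccagca
Crhbp before the start: gagctggaccctCGTCAttgccacgcattt
Of all entries, 13.6% held the TATA box, 20.8% the shorter response element (the full one also counts here), 7.81% the AP-1 site and 1.79% the full response element. A match of letters is a description and not a binding site.

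Libraries held 35.9 M to 64.5 M counts. Msh3, the targeted gene, checks the labels: its RNA went against a loss of transcript, with 24.2 ± 1.06 CPM (library-scaled counts, reads of the gene per M reads counted; mean ± SD) in WT (n = 7), 67.4 ± 5.11 in Msh3+/- (n = 9) and 109 ± 7.91 in Msh3-/- (n = 8), so group names below are the labels'. Gene counts do not show which part of the transcript was made. The tissue carried its label: Slc17a7, the transporter of cortical glutamate neurons, lay at 1040 to 1390 CPM. Peptides that define the hypothalamus, the other main source of Crh, were low, with Avp at no more than 0.166, Oxt 0.123, Hcrt 0.156, Pmch 0.218 and Trh 0.66 CPM in any mouse. Summed over 10 hypothalamus markers the highest value was 2.0 CPM, in Msh3-/- M4. Over 8 pituitary markers the sum had a median of 0.583 CPM but reached 9.93 in Q140 F2 and 3.23 in Msh3+/- F1. The part of such RNA in the Crh values was not tested. Choroid plexus RNA stood out in 3 libraries, where Ttr, its main transcript, reached 353 CPM in WT M3, 106 in Msh3-/- F3 and 1090 in Msh3-/- F4, beside a median of 2.33. Mice are named by the sex and number in their labels.

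On a scale that corrects for gene length (FPKM), the receptor Crhr1 had the highest level of the 4 and the receptor Crhr2 the lowest. Over 48 mice the mean was 12.7 ± 1.15 FPKM for Crhr1, 9.47 ± 1.1 for Crhbp, 3.35 ± 0.699 for Crh and 0.148 ± 0.0526 for Crhr2. Crhr1 exceeded Crhbp in 46 of 48 mice, by a median of 1.34 times. Crhbp exceeded Crh in 48 of 48, by a median of 2.88 times and a range of 1.91 to 4.04. Crhr1 exceeded Crhr2 by a median of 87.4 times, between 39.1 and 172. The binding protein's RNA was thus above that of its ligand in each library. The ranges of neighbours in this order did not overlap, except those of Crhr1 and Crhbp (10.1 to 14.8 and 7.22 to 11.6 FPKM).

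**Figure D1:**
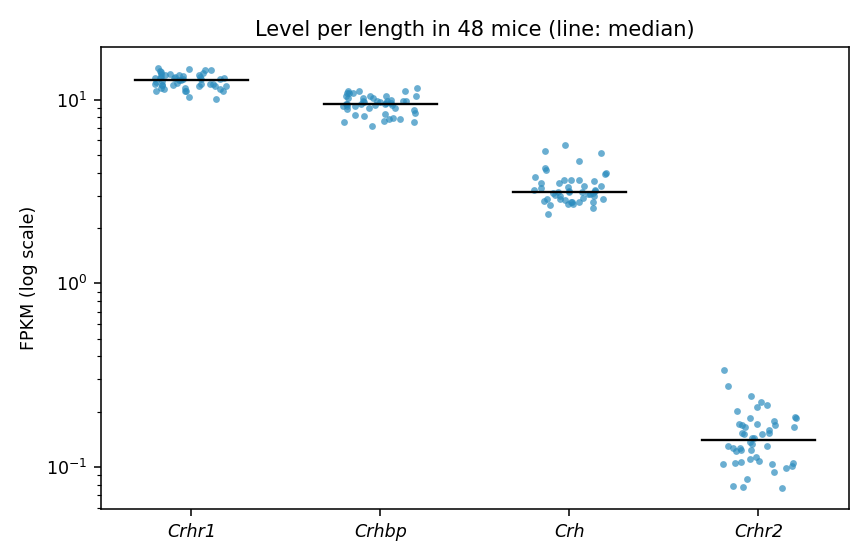
Level per gene length (FPKM, logarithmic axis) of the 4 genes, with 1 point per mouse and a line at the median of 48 mice. Crhr2 lies below every other gene in each mouse, and the points of Crhr1 and Crhbp meet.

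The other ligands of these receptors were hardly detected. Urocortin (Ucn) had a mean of 2.54 counts per library and none in 7 of 48. Urocortin 2 (Ucn2) had 1.71 and none in 13. Urocortin 3 (Ucn3) had none in 47. All 3 were below the filter for testing, so that Crh was the 1 ligand of the family that could be compared between groups.

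Crh, the ligand, was lower in Q140 mice than in WT, which is the value the gene was chosen by. WT mice lay between 4.12 and 5.64 CPM with a median of 4.70 (mean 4.77 ± 0.587, n = 7). Q140 mice lay between 3.15 and 4.16 with a median of 3.59 (mean 3.71 ± 0.347, n = 8). All 8 Q140 mice were below the WT median, and the groups overlapped by 1 Q140 mouse and 2 WT mice. The fitted difference was -0.38 ± 0.13 on the log2 scale (SE), or 0.77 of the WT level.

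The value by which Crh was chosen holds no mice with altered Msh3, and in these mice Crh did not pass the test for Q140. Whether their Crh values were among the other earlier results known is not recorded. Msh3+/- mice had 3.60 to 6.90 CPM (median 4.30) and Q140 x Msh3+/- mice 3.46 to 5.0 (median 3.99). Msh3-/- mice had 3.54 to 7.51 (median 4.02) and Q140 x Msh3-/- mice 3.62 to 5.34 (median 4.41). The groups overlapped throughout: 7 of 16 mice with Q140 lay below the median of the 17 without. Over both Msh3 genotypes the Q140 difference in Crh was -0.14 ± 0.09 (95% interval -0.32 to 0.03, adjusted p = 0.905, edgeR quasi-likelihood test). It was -0.09 without Msh3-/- F1. In limma it was -0.108 with the name stem as a random block and -0.115 without the block but with quality weights. It was -0.19 without the 3 libraries with much Ttr (unadjusted p = 0.0315, adjusted p = 0.85, edgeR) and -0.19 without 3 libraries apart on a principal component (unadjusted p = 0.0388, adjusted p = 0.766, edgeR). None of the 4 genes was called in that comparison at an adjusted p under 0.05 by edgeR, DESeq2 or limma. In the main edgeR fit (all 48 mice, genotype and sex) none had an unadjusted p under 0.05. Crhr2 did so with plate column as a factor, as given below. Statements below on how many genes had an unadjusted p under 0.05 are from edgeR with all 48 mice and no plate or block term. Over all 20010 genes tested 0.01% were called (2 genes), and 1119 had an unadjusted p under 0.05 (edgeR).

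Taken by Msh3 genotype, Crh differed with Q140 by -0.22 ± 0.12 in Msh3+/- (adjusted p = 0.78) and by -0.07 ± 0.12 in Msh3-/- mice (adjusted p = 0.927, both edgeR). The gap between these 2 differences was 0.15 ± 0.17 (adjusted p = 0.839, edgeR). None of the 4 genes was called in either, by edgeR, DESeq2 or limma, or had an unadjusted p under 0.05. The share of all genes called by edgeR was 0.015% in Msh3+/- and 0% in Msh3-/-. In edgeR 1240 and 1361 genes had an unadjusted p under 0.05, and within Msh3-/- DESeq2 called 5 genes.

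The highest Crh values came from females with altered Msh3 and without Q140. Msh3-/- F1 had 7.51 CPM, Msh3+/- F4 6.90, Msh3+/- F1 6.88 and Msh3-/- F2 6.12, above all 16 mice with Q140 and altered Msh3. Of these 4, Msh3-/- F1 and F2 and Msh3+/- F1 are the 3 mice of 1 name stem, and stem, sex and genotype cannot be told apart for them. Without these 3, which were singled out after their values were seen, the Q140 difference over both Msh3 genotypes was 0.00 ± 0.07, that within Msh3-/- 0.16 ± 0.11 and that within Msh3+/- -0.15 ± 0.10. Without Msh3-/- F1 the Q140 difference within Msh3-/- turned from -0.07 to 0.05. Sex differences in Crh were not called. Females had 4.63 ± 1.13 CPM and males 4.21 ± 0.641 (n = 24 each), with a fitted male minus female value of -0.13 ± 0.07 (adjusted p = 0.286, edgeR), and of -0.04 ± 0.06 without the 3 mice of that stem. None of the 4 genes was called for sex by edgeR, DESeq2 or limma, or had an unadjusted p under 0.05. Of all genes 5.56% were called by edgeR, and 4139 had an unadjusted p under 0.05. The Q140 difference in Crh was 0.17 ± 0.14 higher in males than in females and -0.04 ± 0.12 without the 3 mice of that stem. It includes the mice by which Crh was chosen and is given without a test. In that comparison none of the 3 genes other than Crh was called or had an unadjusted p under 0.05, and over all genes 0% were called by edgeR (897 at an unadjusted p under 0.05), and 0 by DESeq2 and limma.

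**Figure D2:**
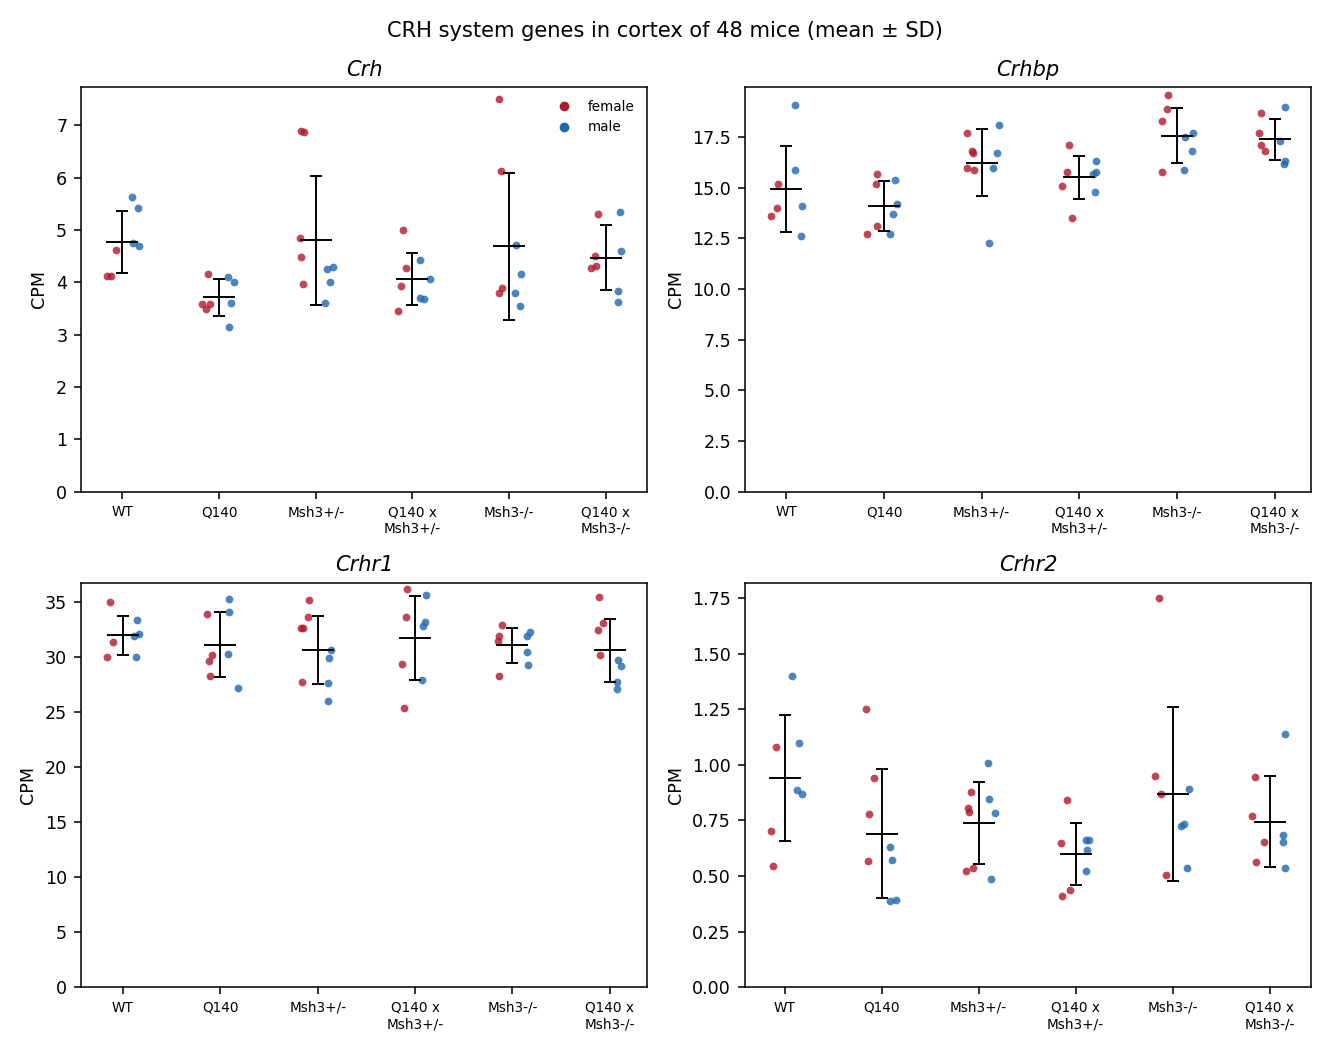
CPM of Crh, Crhbp, Crhr1 and Crhr2 in each mouse by group, females in red and males in blue, with mean and SD in black. Crh is lowest in Q140 mice (3.15 to 4.16 CPM), Crhbp is highest in both groups labelled Msh3-/- (15.8 to 19.6 CPM), and the Crhr1 groups overlap.

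Crhbp, the binding protein, rose in mice with 2 altered Msh3 alleles, the mice labelled -/-, in which Msh3 RNA was higher too. WT mice had 12.6 to 19.1 CPM (median 14.1) and Q140 mice 12.7 to 15.7 (median 14.0). With 1 altered allele the range was 12.3 to 18.1 in Msh3+/- (median 16.7) and 13.5 to 17.1 in Q140 x Msh3+/- mice (median 15.8). With 2 it was 15.8 to 19.6 in Msh3-/- (median 17.6) and 16.2 to 19.0 in Q140 x Msh3-/- mice (median 17.2). All 16 mice with 2 altered alleles lay above the median of the 15 with none, and 13 of those 15 lay below the lowest mouse with 2. The overlap came from WT M2, at 19.1 CPM, and WT M4, at 15.9. In bulk tissue more cells of a type and more RNA per cell cannot be told apart.

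Without Q140 the mean was 14.9 ± 2.14 CPM with no altered allele (n = 7), 16.2 ± 1.66 with 1 (n = 9) and 17.6 ± 1.36 with 2 (n = 8). With Q140 it was 14.1 ± 1.22, 15.5 ± 1.06 and 17.4 ± 1.05 (n = 8 each). Over both Q140 states the rise with 2 altered alleles was 0.27 ± 0.05 on the log2 scale, or 1.2-fold (95% interval 0.17 to 0.36, adjusted p = 0.00151, edgeR). Crhbp was the 1 member of 4 called there, against 0.085% of all genes (17 of 20010), and it ranked 10 by p. Counted as 0, 1 or 2 altered alleles on a line, an added analysis of all 48 mice gave 0.27 ± 0.05 over 2 alleles (adjusted p = 0.000668, edgeR). With the name stem as a random block it was 0.27 ± 0.05 (adjusted p = 0.00172, limma with voom). The mice with 1 allele lay between the others: 1 of 15 mice with no altered allele, 9 of 17 with 1 and 14 of 16 with 2 were above the median of all mice, 16 CPM.

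**Figure D3:**
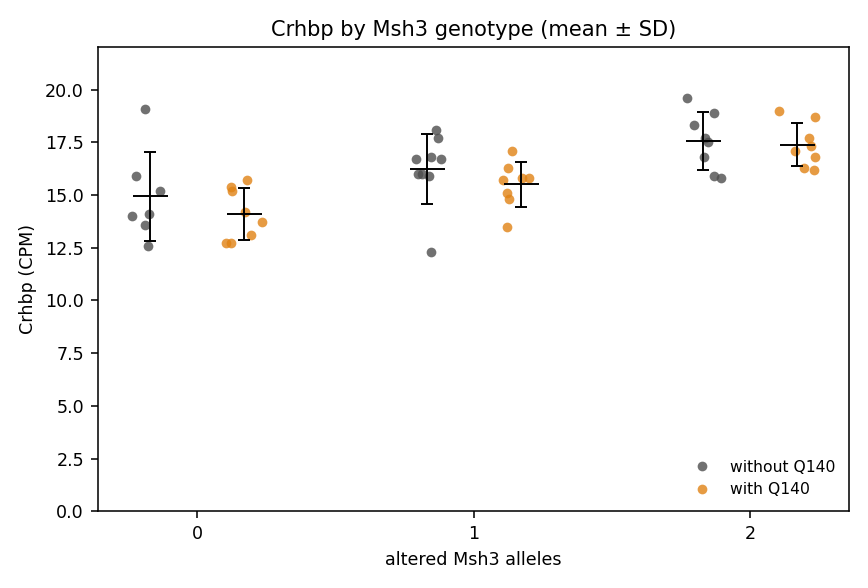
Crhbp in CPM by the number of altered Msh3 alleles, with 1 point per mouse, mean and SD in black, and mice with Q140 offset to the right. Mice with 2 altered alleles lie between 15.8 and 19.6 CPM, and 13 of the 15 with none lie below 15.8.

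Split by Q140, the Crhbp difference of 2 altered alleles was 0.23 ± 0.07 without Q140 and 0.30 ± 0.07 with it, and these did not differ by more than their error (0.07 ± 0.09, adjusted p = 0.984, edgeR). Neither passed alone in edgeR. Against WT the adjusted p was 0.536 in Msh3-/-, where 0.035% of all genes were called. None of the 3 members other than Crh was called there by edgeR, DESeq2 or limma. Of these 3, 1 had an unadjusted p under 0.05, beside 1146 of all 20010 genes. Against Q140 the adjusted p was 0.0617 in Q140 x Msh3-/- mice, where edgeR called 0.045% of all genes and none of the 3 members other than Crh. Crhbp alone of these 3 had an unadjusted p under 0.05, beside 1814 of all 20010 genes. Exact permutation of the labels within sex gave an unadjusted two-sided p of 0.0151 for Msh3-/- against WT and 0.000408 for Q140 x Msh3-/- against Q140. Without WT M2, the highest WT mouse, the comparison with WT was called (0.31, adjusted p = 0.0341, edgeR). This was the 1 call among 48 edgeR fits that left out 1 mouse, and 0 of 16 other settings called it. The comparison with Q140 was called in 4 of 16 other settings, among them DESeq2 (adjusted p = 0.00805) and limma with voom and quality weights (adjusted p = 0.0439). It was not called by limma with voom and the name stem as a random block (adjusted p = 0.0752). Nor was it by edgeR without the 3 libraries with much Ttr (adjusted p = 0.0639). Of 48 edgeR fits that left out 1 mouse, 8 called it, with adjusted p of 0.0115 to 0.0494 (WT M1 or M2, Q140 F4 or M1, Msh3+/- M2 or M3, Q140 x Msh3+/- F1, Q140 x Msh3-/- M1).

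With 1 altered allele Crhbp differed by 0.12 ± 0.07 from WT (adjusted p = 0.57) and by 0.14 ± 0.07 from Q140 (adjusted p = 0.96, both edgeR). None of the 3 members other than Crh was called in either comparison by edgeR, DESeq2 or limma. The number with an unadjusted p under 0.05 was 0 against WT and 1 against Q140, beside 1901 and 1028 of all 20010 genes. The share of all genes called by edgeR was 0.025% and 0.02%. For Q140 with altered Msh3, Crhbp did not pass the test, with a difference of -0.04 ± 0.04 over both (95% interval -0.13 to 0.05, adjusted p = 0.975, edgeR). Between Q140 and WT mice, given without a test, it was -0.08 ± 0.07 in Q140 mice.

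In females alone the Crhbp difference of 2 altered alleles was 0.33 ± 0.06 (adjusted p = 0.00932) and in males alone 0.22 ± 0.08 (adjusted p = 1, both edgeR). The male effect minus the female effect was -0.11 ± 0.10 (adjusted p = 1, edgeR with genotype by sex), so that the sexes were not shown to differ. Both single-sex fits and this difference were chosen after seeing the data.

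Crhbp lies among genes of chromosome 13 whose RNA also moved with the Msh3 genotype. Within 10 Mb of Msh3, 12 of 121 tested genes were called for 2 altered alleles over both Q140 states (9.92%, Msh3 and Crhbp included), against 5 of 19889 outside this window (0.0251%). Those outside include Nnt, farther off on chromosome 13, at 0.52 ± 0.10 (adjusted p = 0.00704, edgeR). Among the 14 other tested genes that start within 1 Mb of Crhbp, 2 were called. F2r, a thrombin receptor 174 kb away, rose by 0.76 ± 0.06, and F2rl2, a related receptor 252 kb away, fell by 1.03 on the log2 scale (SE 0.12). The nearest tested gene on the Msh3 side, Aggf1, differed by 0.04 ± 0.02 (adjusted p = 0.6) and the nearest on the other side, F2rl1, by 0.10 ± 0.24 (adjusted p = 0.926, both edgeR). The called neighbours thus differed in direction, and the nearest ones were not called. F2rl1 had a mean of 0.171 CPM, and its SE of 0.24 was near the size of the Crhbp difference. Its value therefore cannot show whether it moved alike. Nearer to Msh3, Rasgrf2, Cmya5, AW495222, Bhmt2 and Ankrd34b fell and Dmgdh rose, and on the far side Fam169a fell and Lncenc1 rose. An effect of the Msh3 alteration on Crhbp and an effect of chromosome 13 sequence passed on with the altered allele cannot be told apart in this design, and the part of position was not tested. RNA of choroid plexus markers also lay higher in mice with 2 altered alleles (7 of 7 tested above 0, none called, median 0.42), and without the 3 libraries with much Ttr the Crhbp difference was 0.26 ± 0.05 (adjusted p = 0.008, edgeR).

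**Figure D4:**
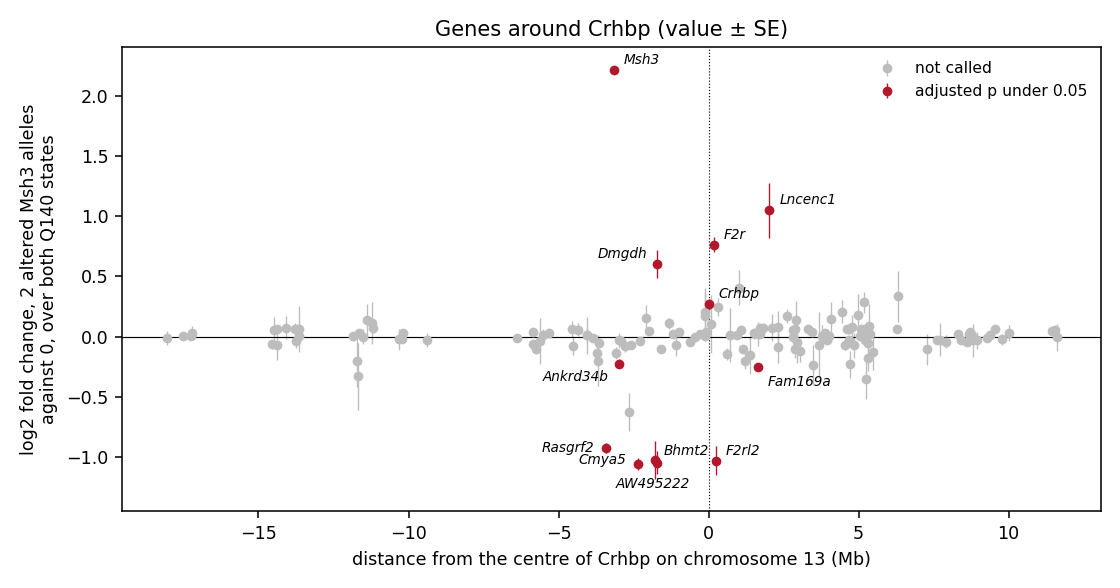
Log2 fold change (value ± SE) of tested genes on chromosome 13 for 2 altered Msh3 alleles against none, over both Q140 states, by distance in Mb from the centre of Crhbp (0). Genes with an adjusted p under 0.05 are red: Crhbp at 0.27 stands beside F2r at 0.76 and F2rl2 at -1.03.

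Crhr1, the main CRH receptor, was not called in any comparison. Group means ran from 30.6 ± 3.12 CPM in Msh3+/- (n = 9) to 32.0 ± 1.80 in WT (n = 7), and single mice from 25.4 to 36.2 CPM. The groups overlapped in full. The Q140 difference over both altered Msh3 genotypes was 0.02 ± 0.04 (95% interval -0.07 to 0.11), and that of 2 altered Msh3 alleles was -0.04 ± 0.05 (95% interval -0.13 to 0.05), with adjusted p of 0.99 and 0.853 (edgeR). With 1010 to 2074 counts per library, Crhr1 had the most reads of the 4.

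Crhr2, the other receptor, was counted 15 to 91 times per library, which limits what can be seen. WT mice had 0.545 to 1.40 CPM (median 0.888) and Q140 mice 0.390 to 1.25 (median 0.603). In this contrast, which is given without a test like that of Crh, the fitted difference was -0.47 ± 0.23, and 6 of 8 Q140 mice were below the WT median. With altered Msh3, mice without Q140 had 0.485 to 1.75 CPM (median 0.788) and mice with Q140 0.408 to 1.14 (median 0.652). The groups overlapped, although 13 of 16 mice with Q140 lay below the median of those without, and the difference was -0.25 ± 0.16 (95% interval -0.57 to 0.07, adjusted p = 0.914, edgeR). This value moved with the setting: it was -0.56 ± 0.15 with plate column as a factor (unadjusted p = 0.000627, adjusted p = 0.421), -0.16 ± 0.18 with plate row (adjusted p = 0.973, both edgeR) and -0.15 without Msh3-/- F4. In limma it was -0.13 on log2(FPKM + 0.1) and -0.03 on log2(FPKM + 1), scales that shrink the change of so low a gene.

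The highest Crhr2 values, 1.75 CPM in Msh3-/- F4 and 1.40 in WT M3, came from the mice with the most Ttr (1090 and 353 CPM). The third mouse with much Ttr, Msh3-/- F3, had 0.504 CPM of Crhr2. Summed over 10 choroid plexus markers, none of which had a median of 0, choroid plexus RNA ran from 3.82 to 389 CPM in WT, 4.26 to 10.6 in Q140 and 3.96 to 1230 in Msh3-/- mice. Without these 3 libraries the Q140 difference in Crhr2 was -0.33 ± 0.21 against WT, -0.19 ± 0.15 over both altered Msh3 genotypes and -0.09 ± 0.21 within Msh3-/-, where it had been -0.21 ± 0.22. Leaving out Msh3-/- F4 alone brought the last to -0.002. Over both altered Msh3 genotypes 7 of 7 tested choroid plexus markers lay below 0 with Q140, none called, with a median of -1.19. The part of choroid plexus RNA in the Crhr2 values beyond this was not tested.

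**Figure D5:**
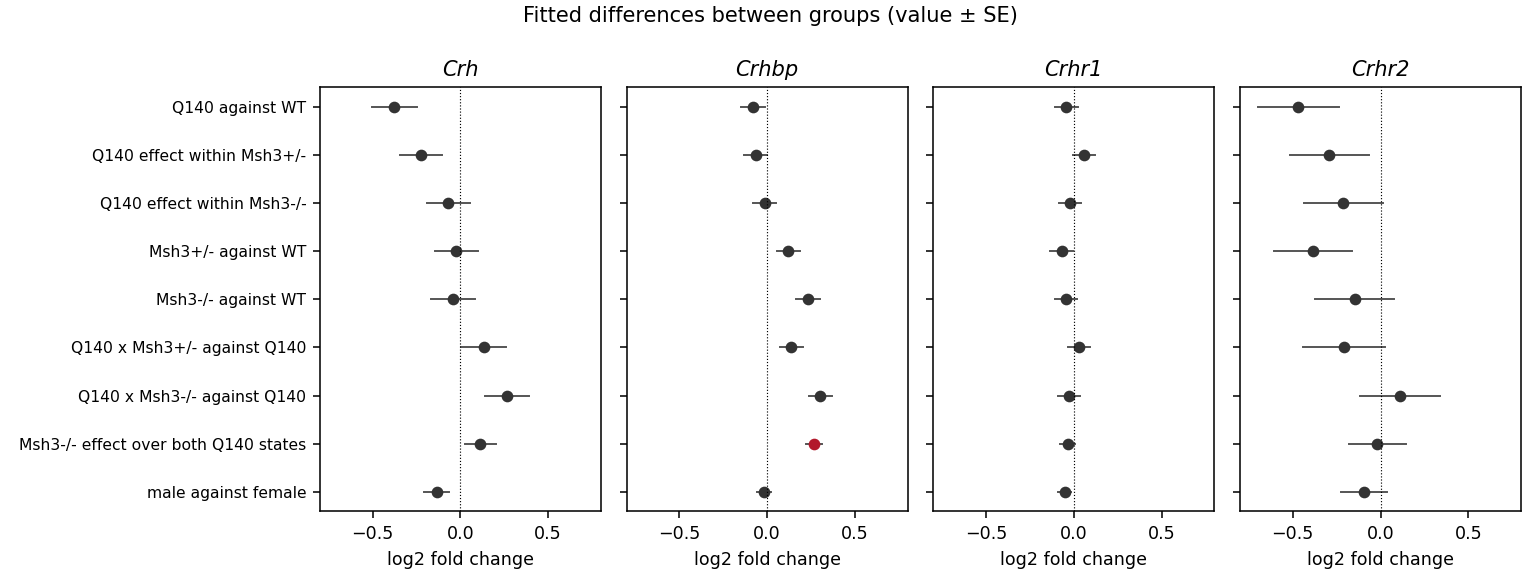
Fitted log2 fold changes (point) with their SE (line) for each gene in 9 comparisons, the Q140 effects listed first. The red point is the 1 called value among those tested, Crhbp for 2 altered Msh3 alleles over both Q140 states (0.27), while the Crhr1 points stay near 0 and the Crhr2 lines are the longest.

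The effect of the Msh3 alleles on Crh is harder to read, since it is set against the same WT and Q140 mice by which Crh was chosen. Crh was 0.27 ± 0.13 above Q140 in Q140 x Msh3-/- mice and 0.13 ± 0.13 above in Q140 x Msh3+/- mice, while Msh3-/- and Msh3+/- mice differed from WT by -0.04 ± 0.13 and -0.02 ± 0.12. These 4 values share their reference mice in pairs and are given without a test. Over both Q140 states 2 altered alleles gave 0.11 ± 0.09, and 0.01 ± 0.07 without the 3 mice of the stem that holds Msh3-/- F1 and F2. By sex, in an analysis added after seeing the data, the values turned on the same mice. Females had 3.96 ± 0.407 CPM with no altered allele (n = 7) and 4.97 ± 1.28 with 2 (n = 8), a fitted difference of 0.32 ± 0.14. Without Msh3-/- F1 it was 0.21 ± 0.13 and without F1 and F2 0.09 ± 0.12. The other 6 females with 2 altered alleles had 4.35 ± 0.536 CPM (3.8 to 5.3). Males had 4.42 ± 0.869 and 4.2 ± 0.632 (n = 8 each), a fitted difference of -0.06 ± 0.09. The male effect minus the female effect, -0.37 ± 0.17 with all mice, holds the same reference mice, so it too is a description.

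Genes that process the peptide or carry the receptors' signal were examined as lists. Of 26 genes of cyclic AMP signalling (G protein, adenylyl cyclases, protein kinase A, CREB factors, phosphodiesterases and arrestins), all were tested and none was called for Q140 with altered Msh3 or for 2 altered alleles, with median log2 changes of 0.00 in each case beside medians of 0.00 over all genes. For Q140 the smallest p belonged to the phosphodiesterase Pde4b, at 0.05 ± 0.03 (adjusted p = 0.887), and the adenylyl cyclase Adcy6, at 0.05 ± 0.03 (adjusted p = 0.895). For 2 altered alleles they were the transcription factor Creb1, at 0.07 ± 0.03 (adjusted p = 0.456), and the adenylyl cyclase Adcy5, at -0.08 ± 0.03 (adjusted p = 0.475, all edgeR). Of 10 genes for peptide processing and secretory granules none was called in either, and the median was -0.02 for Q140 and 0.02 for 2 altered alleles. With Q140 8 of the 10 lay below 0, and for 2 altered alleles 9 lay above 0. Cpe, a carboxypeptidase that trims peptides, was at -0.03 ± 0.02 and Scg3, a granule protein, at -0.03 ± 0.02 with Q140 (adjusted p = 0.901 and 0.922), and for 2 altered alleles Scg5 was at 0.07 ± 0.03 and Pcsk1n at -0.11 ± 0.08 (adjusted p = 0.537 and 0.672, all edgeR). Of 11 genes of the stress axis and the corticosteroid receptors, 8 were tested and none was called for Q140 with altered Msh3 or for 2 altered alleles, with medians of 0.02 and 0.00. Nr3c1, the glucocorticoid receptor, differed by 0.06 ± 0.04 with Q140 (adjusted p = 0.915) and Nr3c2, the mineralocorticoid receptor, by 0.05 ± 0.03 (adjusted p = 0.922, both edgeR). For 2 altered alleles Per1, a clock gene, was at -0.20 ± 0.11 and Avpr1a, a vasopressin receptor, at 0.29 ± 0.25 (adjusted p = 0.6 and 0.755, edgeR). By sex, for which 5.56% of all genes were called, 1 of the 8 tested genes of this list was called. Hsd11b1, which regenerates glucocorticoid, was higher in males by 0.14 ± 0.04 (adjusted p = 0.0177, edgeR). Other lists held calls for sex too. Higher in males were 4 of 16 activity-dependent genes, 2 of 20 GABAergic interneuron markers and 1 of the 26 cyclic AMP genes. Lower in males were 1 of these 26 and 1 of the 10 peptide processing genes.

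Inhibitory interneurons are the main cortical source of Crh and Crhbp. Of 20 GABAergic interneuron markers none was called in either comparison, with medians of 0.00 for Q140 with altered Msh3 and 0.02 for 2 altered alleles. For 2 altered alleles, where Crhbp rose, Vip, a peptide of a class of interneurons, differed by 0.16 ± 0.05 (adjusted p = 0.224) and Cort, cortistatin, by -0.59 ± 0.17 (adjusted p = 0.251, both edgeR). With Q140, Cck was at -0.07 ± 0.03 and Lamp5 at -0.09 ± 0.04 (adjusted p = 0.868 and 0.887, edgeR). The summed level of the 20 markers ran from 1960 to 2350 CPM over all mice. Their part in the Crhbp difference was not tested. Of 16 activity-dependent genes none was called for Q140 with altered Msh3, yet 15 lay below 0, with a median of -0.26 beside 0.00 over all genes. Nptx2 differed by -0.33 ± 0.10 (adjusted p = 0.733) and Npas4 by -0.62 ± 0.20 (adjusted p = 0.733, both edgeR). Their summed level spanned 747 to 3060 CPM over all mice. Its median was 2760 in WT and 1700 in Q140 mice, where Crh was lower (medians 4.70 and 3.59 CPM). The lowest median of the sum, 1260 CPM, belonged to Q140 x Msh3-/- mice, whose Crh median of 4.41 was above that of Q140 mice. The Msh3-/- group had medians of 1580 CPM for the sum and 4.02 for Crh, the Msh3+/- group 1870 and 4.30. The cross of the latter group with Q140 had 1540 and 3.99. The part of this summed level in the Crh values was not tested. For 2 altered alleles 14 of these 16 genes lay below 0 and none was called, with a median of -0.23, beside the rise of Crhbp. Their part in that rise was not tested.

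Between mice, the 4 genes showed no shared pattern that passed adjustment. After genotype and sex means were removed, Crh and Crhbp had Pearson's r = 0.33 and Spearman's rho = 0.29 over 48 mice (unadjusted permutation p = 0.0244 and 0.0471), with adjusted p of 0.146 and 0.141 over 6 pairs, and r = 0.28 without the 2 mice farthest from the median of Crh. Crh and Crhr1 had r = 0.25 and rho = 0.32 (unadjusted permutation p = 0.0855 and 0.0284, adjusted p = 0.257 and 0.141). The other 4 pairs had r between -0.10 and 0.16 and rho between -0.10 and 0.19. The 5 genes whose residual pattern over the 48 mice was most like that of Crh were Scg2, a granule protein of neuroendocrine cells (r = 0.77), Cap2 (0.77), Sema3a (0.68), Noc2l (0.68) and Clmp (0.66). For Crhbp they were Ccdc142os (r = 0.61), Nhlrc1, Mrpl40, Srsf3 and Zzz3 (0.58), and for Crhr1 Cyb561d1 (r = 0.76), Etnk2, Kif21b, Adcy8 and Bahcc1 (0.71). For Crhr2 they were Htr2c, a serotonin receptor (r = 0.63), Cpne2, Sh3d19, Synpr and Vat1l (0.57). These are descriptions, and the points share library depth and composition.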

How the data were processed

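RNA of 48 mouse cortices was sequenced from stranded TruSeq libraries, per the labels' protocols. HTSeq 0.12.3, SAMtools 1.10 and STAR 2.7.5c stand in the submitters' processing notes beside the build GRCm38 (mm10). The order of steps, the annotation release and the strand setting are not given in the sources used here. The authors deposited raw read counts per gene and FPKM values scaled by gene length and library total. From the counts, genes were kept by filterByExpr (20010 of 48795, the 4 members included), scaled by TMM and fitted in R 4.3.3 with edgeR 4.0.16 (quasi-likelihood F-test, 6 genotypes and sex, all 48 mice), with Benjamini-Hochberg adjustment over all genes tested and calls at an adjusted p under 0.05. CPM use TMM-scaled library sizes. The fit was also run on counts simulated for independent libraries with the same spread for all genes. Shared name stems were not part of that simulation. FPKM served for levels between genes and in limma 3.58.1 alternatives on log2(FPKM + 0.1) and log2(FPKM + 1), and DESeq2 1.42.0 was another. Limma on counts used voom with quality weights, but plain voom where the stem of the library name entered as a random block. Positions are from GENCODE M21, to which 48349 identifiers matched. The members, the gene lists, the rule for named genes (the 4 members throughout, per list the called genes or the 2 with the smallest p, the called and nearest genes within 1 Mb of Crhbp, and the 5 genes most like each member) and the libraries left out were chosen with earlier results of these data known. Whether earlier values of Crhbp were among them is not recorded.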

Additional observations from a re-analysis of the deposited data

Results flagged for a closer look

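In 2 of 24 gene-by-group sets of mice, 1 mouse stood apart from the rest of its group by Dixon's test, where chance gives about 1 in 20. In Msh3+/- mice, M3 had 12.3 CPM of Crhbp, and the next lowest mouse of the group had 15.9. In Msh3-/- mice, F4 had 1.75 CPM of Crhr2, and the next highest had 0.948. This library also held 1090 CPM of Ttr, and the part of that RNA in its Crhr2 value was not tested.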

How the results depend on the processing

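The Crhbp rise with 2 altered Msh3 alleles over both Q140 states was called in each of 48 fits that left out 1 mouse (0.25 to 0.30). These fits called 12 to 22 of all genes. The rise was also called under every other setting except males only (0.219), with 9 to 37 of all genes called. In males only none of the 3 members other than Crh was called, beside 8 of all genes. In Q140 x Msh3-/- against Q140 the main fit called none of the 3 members other than Crh, beside 9 of all genes. Of these 3, Crhbp alone was called with the replicate block (0.302, adjusted p = 0.0365, edgeR), in DESeq2, in limma with voom and quality weights and with only the groups compared. In these settings 10, 8, 10 and 9 of all genes were called. Leaving out 1 mouse gave 0 to 1 of these 3 members called, beside 8 to 12 of all genes. The block changed no other call. Msh3-/- against WT had 0 to 1 of the 3 members other than Crh called when 1 mouse was left out, beside 7 to 9 of all genes. Same-numbered mice did not deviate together: over 115 pairs the mean r was -0.01 (-0.39 to 0.34), and 8 of 48 mice correlated best with their own number.

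Signs turned for values that were not called or were given without a test, and the cause was not tested. With plate row as a factor, Crhr1 for Q140 in altered Msh3 was -0.005, Crh for Q140 within Msh3-/- 0.052, Crhr1 in Q140 x Msh3-/- against Q140 0.006, and the sex difference of the Q140 effect on Crhbp -0.054. With plate column, Crhr2 in Q140 x Msh3-/- against Q140 was -0.371 and Crhr2 by sex 0.015. Crh in Msh3+/- against WT was 0.008 without sex and 0.013 without 3 libraries apart on the second principal component, and in Msh3-/- against WT 0.069 without the choroid plexus libraries. For 2 altered alleles over both Q140 states, males only gave Crh -0.055 and Crhr2 0.025, and females only gave Crhr1 0.030 and Crhr2 0.048 (0.028 and 0.065 without Msh3-/- F1, 0.020 and 0.122 without F1 and F2). Without the 3 mice of the stem that holds these, Crh for Q140 was 0.003 in altered Msh3, 0.159 within Msh3-/- and -0.036 for its sex difference, and Crhbp for Q140 within Msh3-/- 0.015.

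Leaving out 1 mouse moved Crh from -0.089 to 0.032 in Msh3+/- against WT, from -0.157 to 0.013 in Msh3-/- against WT and from -0.118 to 0.054 for Q140 within Msh3-/-. It moved Crhbp from -0.036 to 0.009 for Q140 within Msh3-/- and from -0.014 to 0.059 for the sex difference of the Q140 effect. Against Q140, Crhr1 moved from -0.002 to 0.074 in Q140 x Msh3+/- and from -0.056 to 0.007 in Q140 x Msh3-/- mice, and Crhr2 from -0.020 to 0.280 in the latter. For 2 altered alleles over both Q140 states Crhr2 moved from -0.122 to 0.072. Crhr2, with 15 to 91 counts per library, is the gene most limited by depth.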
